A study of Mus musculus with 6 samples.

Results

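The genes described here are 53 genes of mitosis and the G2 phase, chosen by name and found among the 54838 Ensembl gene IDs of each library. They and the gene lists set beside them were chosen with earlier results of these data known. All 53 had between 1132 and 46038 counts in every library, and all 53 were among the 15998 genes that passed the filter on low counts. The data are bulk RNA sequencing counts of 6 libraries made from sorted intestinal cells of mice, 3 given INT-777 and 3 given its solvent DMSO. INT-777 is a semisynthetic bile acid that activates the membrane receptor TGR5, encoded by Gpbar1, and the series title states that genes induced through that receptor were sought.

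Every library came from Lgr5-eGFP-IRES-CreERT2 mice, strain B6.129P2-Lgr5tm1(cre/ERT2)Cle/J in the labels, in which GFP and an inducible Cre are expressed from the Lgr5 locus of intestinal stem cells. On each of 3 days the GFP-high cells of 4 pooled mice were sorted, and about 200000 of them were embedded in Matrigel at 20000 cells per drop of 10 µL. Cells of both groups grew with 1 µM JAG-1, a peptide of a Notch ligand, and with 3 µM CHIR99021, which inhibits the kinase GSK3. INT-777 at 30 µM or DMSO was added 4 h after embedding. The labels give the treatment as 12 h and the design text gives 16 h, and the files do not settle which. The ages and sexes of the mice are not given in the sources used here. Each day gave 1 DMSO and 1 INT-777 library, so replicate 1, 2 or 3 stands for day 1, 2 or 3 in both groups.

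Cells enter mitosis when Cdk1, bound to an A- or B-type cyclin, is switched on by Cdc25 phosphatases. Kinases such as Plk1 and the Aurora kinases then build the spindle, the checkpoint holds the anaphase-promoting complex (APC/C) back until every kinetochore is attached, and Cdc20 then activates that complex, which has cyclin B and securin destroyed. Most of these genes are transcribed in late S phase, G2 and mitosis, through MuvB complexes and Foxm1 acting on CHR elements and through NF-Y acting on CCAAT boxes, and their RNA is known to be most abundant in those phases. Crypt base stem cells divide often, and differentiating secretory cells leave the cycle. In bulk RNA, fewer cells in a phase and less RNA per cell cannot be told apart.

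The promoter sequences show the CHR and CCAAT elements that are known from this gene group, and were taken from RefSeq annotation on GRCm38.p6. Of the 53 genes, 45 matched by symbol, with 48 windows of 250 bases before to 50 bases after an annotated start; Kif20a, Smc4, Cdca2, Foxm1, Ccna2, Cdc25c, Tpx2 and Aurkb did not match. The first 3 sequences are the 120 bases before the outermost annotated start of Cdc20, Ccnb1 and Cdc25b, on their own strand, with TTTGAA and CCAAT, on either strand, in capitals. Cdc20 is shown because it had the largest treatment difference of the 53, Ccnb1 because its fall on day 3 differed between the treatments, and Cdc25b because it alone was higher on day 3. The stretches lie at chr4:118437353-118437472 (minus strand), chr13:100786571-100786690 (minus strand) and chr2:131186828-131186947 (plus strand).
Cdc20: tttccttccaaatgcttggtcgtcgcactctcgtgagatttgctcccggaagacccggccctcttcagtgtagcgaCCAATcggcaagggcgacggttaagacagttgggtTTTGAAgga
Ccnb1: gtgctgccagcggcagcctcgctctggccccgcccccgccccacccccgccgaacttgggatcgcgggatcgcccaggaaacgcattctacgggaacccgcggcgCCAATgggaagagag
Cdc25b: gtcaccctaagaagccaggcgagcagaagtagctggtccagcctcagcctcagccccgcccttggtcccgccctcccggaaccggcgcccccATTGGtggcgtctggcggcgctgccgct
Cdc20 has 1 TTTGAA and 1 CCAAT in its stretch, and Ccnb1 and Cdc25b each have 1 CCAAT, read as ATTGG in Cdc25b, and no TTTGAA.

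The next sequences are 30 bases around TTTGAA, in capitals, in genes that stand for different steps of mitosis: Cdk1 and Cks1b for entry, Aurka and Plk1 for spindle assembly, Cenpf for the kinetochore, Kif23 and Prc1 for cytokinesis, and Mki67 for the chromosome surface. They lie at chr10:69352910-69352939, chr3:89418291-89418320, chr2:172370521-172370550, chr7:122159453-122159482, chr1:189688067-189688096, chr9:61946780-61946809, chr7:80294434-80294463 and chr7:135716460-135716489 in this order, and each is written in the direction of its gene.
Cdk1: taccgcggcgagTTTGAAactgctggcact
Cks1b: gcgggcggtgtgTTTGAAagcgaggccaaa
Aurka: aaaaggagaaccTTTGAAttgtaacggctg
Plk1: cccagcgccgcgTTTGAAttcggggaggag
Cenpf: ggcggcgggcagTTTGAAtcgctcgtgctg
Kif23: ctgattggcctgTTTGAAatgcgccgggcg
Prc1: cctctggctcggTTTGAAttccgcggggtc
Mki67: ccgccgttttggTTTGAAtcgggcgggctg
The stretches were cut around the hexamer, so it is the same in all of them by choice, and the bases around it differ.

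Searched on both strands (TTTGAA or its reverse complement TTCAAA), the CHR hexamer was present in 37 of the 48 windows, or 77.1%, against 17.9% of 32851 RefSeq windows of the same length. CCAAT or its reverse complement ATTGG was present in 38 of 48 windows, or 79.2%, against 37.4%, and both motifs stood in 32 windows, or 66.7%, against 6.95%. Matches to the 2 motifs were allowed to overlap. A second hexamer, TTCGAA, which is its own reverse complement, was present in 4 windows, or 8.33%, against 1.56%. The 11 genes whose windows hold no TTTGAA were Birc5, Bub1, Ccnb1, Cdc25b, Cenpe, Cks2, Mad2l1, Nek2, Nuf2, Nusap1 and Tacc3. The 47 matches to TTTGAA lay at a median of 17 bases before the start, given as −17, and 35 of them were within 100 bases of it. The 95 matches to CCAAT lay further upstream, at a median of −67, with 64 within 100 bases. A match is a description of the letters in the window, and binding was not measured.

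**Figure D1:**
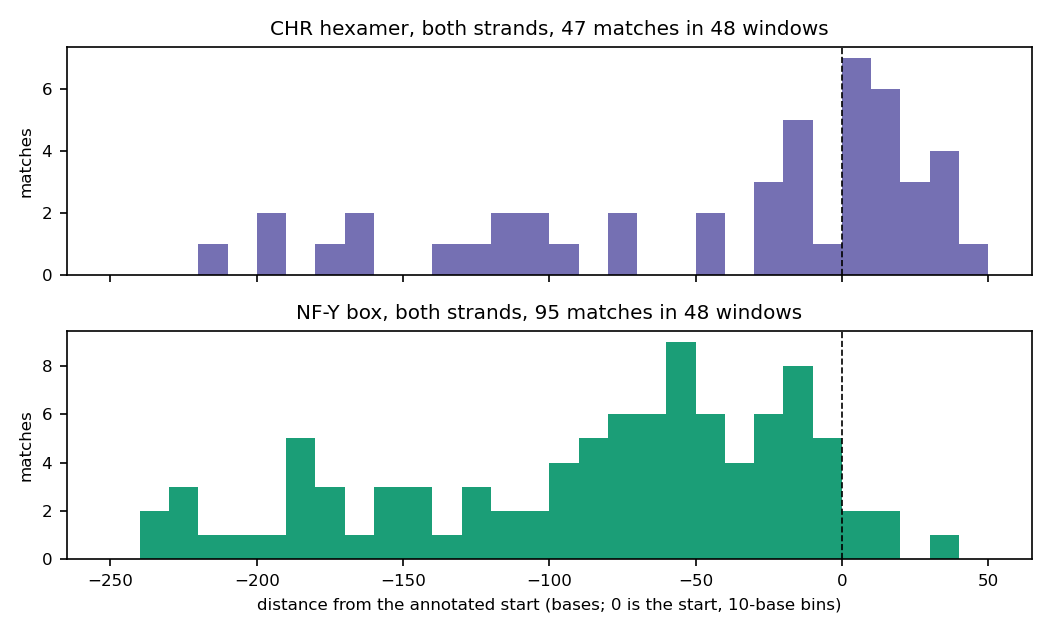
Positions of the CHR hexamer (top) and of CCAAT, the NF-Y box (bottom), in the 48 promoter windows of 45 mitosis genes; the x axis is the distance from the annotated start in bases, in bins of 10, and the y axis is the number of matches. The 47 CHR matches gather around the start (median −17) and the 95 NF-Y boxes upstream of it (median −67).

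The libraries held 60717640 to 63604301 read pairs, of which 74.5 to 75.6% were assigned to genes, and 23051 to 23789 genes had a count. The 2 libraries of day 3 stood apart from the other 4: the first principal component, with 52.1% of the variance, separated them, and the second, with 22.7%, separated the treatments. The RNA integrity numbers in the labels were 8.7 (DMSO) and 9 (INT-777) on day 3 and 9.2 to 9.6 in the other 4, and the 28S to 18S ratios were 1.2 and 1.3 against 1.6 to 1.8. All 14 stem cell markers were detected in every library, at a summed 2366 to 3232 CPM (counts per 1000000 assigned read pairs, with library sizes scaled by TMM). So were all 12 goblet, 11 Paneth and 11 enteroendocrine markers, so detection does not tell the labelled cell type from these. Goblet and Paneth cell markers each summed to more CPM than the stem cell markers in every library. By the design text the libraries of a day share a pool of mice. With treatment as the single term, p-values rest on the spread between these pools and wells. In fits with day terms, pool differences are taken out of that spread, and p-values rest on what remains between these libraries alone.

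Together the 53 genes took 10409, 10397 and 8593 CPM on days 1, 2 and 3 with DMSO, and 10616, 10589 and 9449 CPM with INT-777. Days 1 and 2 were nearly equal and both day 3 libraries were lower, the DMSO one most. Compared per kilobase of exon, with all annotated exons of a gene merged, Tubb4b, a beta-tubulin of the spindle and cytoplasm, was highest in DMSO at 402 CPM per kb. Plk1 (105), Cks2 (105), Ube2c (104), Mki67 (93.3) and Top2a (82.6) followed on that scale. Ndc80, a subunit of the outer kinetochore, was lowest at 3.89 CPM per kb and Cdc25c next at 5.52. Merged exons can be longer than a single transcript, so this ranking depends in part on the annotation. Tubb4b, Cks1b and Cks2 have close relatives in their families, and their counts are uncertain to the extent that reads could map to those copies.

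The first comparison was that of the days, which the replicate numbers mark. On day 3, 36 of the 53 genes were lower, or 67.9%, against 8.61% of all tested genes, and 1, Cdc25b, was higher, or 1.89%, against 11.9% (edgeR F-test for the days beside a term for treatment, Benjamini-Hochberg adjusted p under 0.05). The median log2 change of day 3 against the mean of days 1 and 2 was −0.23 over the 53 genes and 0.01 over all tested genes, and 52 of the 53 changes were negative. In 39 genes both day 3 libraries were below all 4 others, a pattern that 15.7% of all tested genes showed. Of the 37 calls, 34 were also made by DESeq2. Kif2c, Kif4 and Cdca2 were not among them (DESeq2 adjusted p = 0.0609, 0.108 and 0.0730). Days 1 and 2 differed little: no gene moved by more than 0.15 on the log2 scale between them in either treatment. Each day is a single pool of 4 mice, so this test compares these pools and no replicated condition. As the 53 genes were chosen with earlier results of these data known, their shares describe the list and are no independent support.

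Of the 6 genes of the cyclin group (Cdk1, its cyclins and its Cks subunits), 3 fell on day 3: Ccna2, Ccnb1 and Ccnb2. Ccnb1, the main mitotic cyclin (gene at chr13:100778650-100786570, GRCm38), was at 141, 142 and 100.4 CPM with DMSO on days 1, 2 and 3, in this order throughout, and at 149.8, 151 and 129 CPM with INT-777. Both day 3 libraries were below all others, and its day 3 change was −0.36 ± 0.06 (log2 ± SE; edgeR adjusted p = 0.00118). Ccna2, the cyclin of S phase and G2, was at 319, 314 and 245 CPM in DMSO and 307, 327 and 284 CPM in INT-777, again with both day 3 libraries lowest. Ccnb2 changed by −0.31 ± 0.05 (edgeR adjusted p = 0.000765). Cdk1 itself was at 162, 156 and 138 CPM in DMSO and 160.1, 171 and 162 CPM in INT-777. Its DMSO library of day 3 was the lowest and its INT-777 library of day 3 lay among the others, and the day test was not passed (log2 −0.12 ± 0.05, edgeR adjusted p = 0.253). Cks2, a small subunit that binds Cdk1, was at 76.1, 72.7 and 69.1 CPM in DMSO and 74.3, 77.2 and 77.5 CPM in INT-777, where the days overlap, and gave one of the 4 largest day p-values of the 53 (edgeR adjusted p = 0.895).

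Among the 7 regulators of mitotic entry, 4 fell on day 3 (Aurka, Nek2, Cdca3 and Foxm1) and Cdc25b rose. Cdc25b, the phosphatase that starts Cdk1 activation at the centrosome, was at 107, 109 and 138 CPM in DMSO and 123, 118 and 156 CPM in INT-777. Both of its day 3 libraries were above all others, at 1.29 times the level of days 1 and 2 (log2 0.36 ± 0.04, edgeR adjusted p = 5.35e-05). Foxm1, the transcription factor of many G2 genes, was at 185, 193 and 154 CPM in DMSO and 188, 187 and 158 CPM in INT-777 and fell in both treatments. Aurka, the centrosomal Aurora kinase, was at 132, 133 and 97.1 CPM in DMSO and 136, 139 and 123 CPM in INT-777. Its DMSO library of day 3 was lower than that of INT-777, and both were below the rest. Plk1, the Polo kinase that acts from entry to cytokinesis, was at 239.6, 240.4 and 214 CPM in DMSO and 233, 232 and 217 CPM in INT-777, with a day change of −0.13 ± 0.04 that did not pass (edgeR adjusted p = 0.0984). Cdc25c, a further entry phosphatase, did not pass either (log2 −0.12 ± 0.06, edgeR adjusted p = 0.228), and 12.7% of its exonic bases are shared with a gene on the other strand, which counts that ignore strand cannot separate.

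In the group of the spindle checkpoint and the APC/C, 4 of 7 genes fell on day 3: Bub1, Bub1b, Cdc20 and Ube2c. Cdc20, the co-activator that the checkpoint restrains (gene at chr4:118432901-118437352), was at 163, 163 and 117 CPM in DMSO and 187, 188 and 155 CPM in INT-777. Day 3 was lowest within each treatment, at 0.771 times the level of days 1 and 2 (log2 −0.38 ± 0.05, edgeR adjusted p = 0.0002). Bub1, a checkpoint kinase at kinetochores, was at 107, 107 and 87.5 CPM in DMSO and 109, 109 and 102 CPM in INT-777, so that DMSO on day 3 stood lowest. Bub3, the partner of Bub1 and Bub1b, was at 148, 145 and 134 CPM in DMSO and 152, 158 and 157 CPM in INT-777 and did not pass the day test (edgeR adjusted p = 0.728). Mad2l1, which sequesters Cdc20, was at 102, 97.6 and 81.9 CPM in DMSO and 90.9, 98.3 and 98.3 CPM in INT-777. Its low library was that of DMSO on day 3 alone, and the day test over both treatments was not passed (edgeR adjusted p = 0.568). Ube2c, the ubiquitin-conjugating enzyme of the APC/C, fell by 0.22 on the log2 scale (edgeR adjusted p = 0.0235), and 22.8% of its exonic bases are shared with Tnnc2 on the other strand. Ttk, the checkpoint kinase Mps1, changed by −0.10 ± 0.05 and did not pass (edgeR adjusted p = 0.284).

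The centromere, kinetochore and chromosomal passenger group had 5 of 8 genes lower on day 3: Cdca8, Cenpa, Cenpe, Cenpf and Nuf2. Cenpf, a large protein that accumulates in G2 and coats the kinetochore, had the smallest day p of the 53. It was at 219, 211 and 157 CPM in DMSO and 220.1, 214 and 166 CPM in INT-777, and its day 3 level was 0.748 times that of days 1 and 2 (log2 −0.42 ± 0.04, edgeR adjusted p = 1.2e-05). The treatments were close to each other on every day. Cenpa, the histone variant that marks centromeres, was at 104, 101 and 77.9 CPM in DMSO and 109, 108 and 88.9 CPM in INT-777, with day 3 lowest in both (log2 −0.34 ± 0.05, edgeR adjusted p = 0.00024). Aurkb, the kinase of the passenger complex, was at 99.5, 102 and 91.4 CPM in DMSO and 106, 104 and 101 CPM in INT-777 and did not pass (edgeR adjusted p = 0.329). Ndc80 was at 25.8, 25.5 and 24.4 CPM in DMSO and 25.3, 24.0 and 25.5 CPM in INT-777, where libraries of all days overlap (log2 −0.01 ± 0.06, edgeR adjusted p = 0.911), whereas Nuf2, which binds Ndc80 in the same complex, changed by −0.29 ± 0.05 (edgeR adjusted p = 0.00201). Birc5, the survivin subunit of the passenger complex, did not pass (edgeR adjusted p = 0.272).

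Of the 12 spindle motors and microtubule proteins, 8 fell on day 3: Kif2c, Kif4, Kif11, Tpx2, Ckap2, Ckap5, Hmmr and Rangap1. Kif11, the motor that pushes spindle poles apart, was at 265, 267 and 216 CPM in DMSO and 268, 271 and 241 CPM in INT-777. Tpx2, which activates Aurka on the spindle, was at 199, 199 and 155 CPM in DMSO and 200.1, 199.9 and 172 CPM in INT-777. Both motor and activator were lowest in the DMSO library of day 3 and next lowest in its INT-777 partner. Rangap1, the GTPase-activating protein of Ran, was at 360.1, 353 and 313 CPM in DMSO and 413, 397 and 359.7 CPM in INT-777, so that INT-777 on day 3 was level with DMSO on day 1 and DMSO on day 3 stood lowest (log2 −0.18 ± 0.04, edgeR adjusted p = 0.0142). Kif4 passed narrowly (edgeR adjusted p = 0.0483) and Tacc3, a centrosomal microtubule protein, missed narrowly (edgeR adjusted p = 0.0513). Of the exonic bases of Kif4, 15.1% are shared with Pdzd11 on the other strand. Kif22, Nusap1 and Tubb4b did not pass, with edgeR adjusted p-values of 0.339, 0.438 and 0.134.

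All 7 cytokinesis genes fell on day 3, by 0.20 (Kif20a) to 0.33 (Anln) on the log2 scale. Kif23, the motor of the centralspindlin complex (gene at chr9:61915905-61946774), was at 225, 227 and 174 CPM in DMSO and 246, 244 and 205 CPM in INT-777 (log2 −0.32 ± 0.04, edgeR adjusted p = 0.000316). Its partner Racgap1 changed by −0.30 ± 0.05. Prc1, which bundles the microtubules of the midzone, was at 152, 151 and 121 CPM in DMSO and 150.2, 146 and 129.8 CPM in INT-777. Ect2, the activator of RhoA at the cleavage furrow, was at 283, 278 and 207 CPM in DMSO and 250.3, 251 and 223 CPM in INT-777 (log2 −0.30 ± 0.06, edgeR adjusted p = 0.00353). In each of these genes the day 3 libraries were below all 4 others. Of the exonic bases of Kif20a, 29.3% are shared with Cdc23 on the other strand.

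Among the 6 genes of chromosome structure, 5 fell on day 3: Top2a, Mki67, Smc4, Anp32e and Cdca2. Mki67, which encodes the proliferation antigen Ki-67 on the chromosome surface, was at 999.6, 997 and 820.1 CPM in DMSO and 969.5, 936 and 763 CPM in INT-777 (log2 −0.30 ± 0.04, edgeR adjusted p = 0.000417). Top2a, the topoisomerase that untangles sister DNA, was at 772, 773 and 686 CPM in DMSO and 803, 790.5 and 677 CPM in INT-777. In both genes the lowest library was that of INT-777 on day 3, in contrast to the 47 of 53 genes whose lowest library was DMSO on day 3, against 28.9% of all tested genes. The condensin subunit Ncapd2 changed by −0.14 ± 0.04 and did not pass (edgeR adjusted p = 0.0667).

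Markers of other cell types moved with day 3 as well. The 12 goblet cell markers summed to 5989, 5886 and 29570 CPM in DMSO and to 3186, 3097 and 13170 CPM in INT-777, with 11 of 12 higher on day 3 by the same test, and the 11 enteroendocrine markers summed to 665, 677 and 2886 CPM in DMSO and 623, 639 and 2264 CPM in INT-777, with 10 of 11 higher. The 14 stem cell markers summed to 3232, 3223 and 2856 CPM in DMSO and 2832, 2789 and 2366 CPM in INT-777, with 7 lower and 2 higher on day 3. The 11 Paneth cell markers summed to 4566, 4309 and 3556 CPM in DMSO and 3945, 4201 and 2403 CPM in INT-777, with 5 lower and 1 higher. Tuft cell markers summed to 27.6, 25.3 and 34.5 CPM in DMSO and 29.1, 29.4 and 39.3 CPM in INT-777. Of the 5 tested, 3 were higher on day 3, and Il25 was at 0 in all libraries. Enterocyte markers summed to 1717, 1739 and 1420 CPM in DMSO and 1321, 1301 and 1215 CPM in INT-777. Of the 10 tested, 3 were lower on day 3 and 2 higher. The 20 immune cell markers summed to 0.912 to 1.13 CPM on days 1 and 2 and to 10.0 (DMSO) and 9.16 CPM (INT-777) on day 3, and the 12 stromal and endothelial markers to 8.33 to 11.1 CPM and then to 33.8 and 42.8 CPM. On day 3 the goblet and enteroendocrine markers were thus high where the mitosis genes were low, and the RNA integrity numbers were lowest; their part in the result was not tested.

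The second comparison was that of INT-777 with DMSO. With treatment as the single term, none of the 53 genes passed, against 0.688% of all tested genes called higher and 0.763% called lower (edgeR quasi-likelihood test, adjusted p under 0.05). At an unadjusted p under 0.05 there were 3 genes in edgeR (Cks1b, Bub3 and Rangap1), or 5.66%, against 16.4% of all tested genes, and 2 in DESeq2, or 3.77%, against 15.2%. DESeq2 also called none of the 53 at its adjusted p, against 2.22% of all tested genes higher and 2.59% lower. The median log2 change was 0.06 over the 53 genes and 0.00 over all tested genes, and 48 of the 53 changes were positive, although with scaling by DESeq2 size factors 43 and with scaling by library totals 42 were positive. Groups that do not overlap, with INT-777 above, were found in 2 genes, Bub3 and Tubb4b, against 13.6% of all tested genes, and none was below, against 11%. Leaving out the DMSO library of day 3 turned the median to −0.04, with 17 of 53 changes positive.

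With the day as a block, so that each INT-777 library is set against the DMSO library of its own day, 11 of the 53 genes were higher, or 20.8%, against 11.1% of all tested genes, and none was lower, against 10.3% (edgeR). They were Ccnb1, Cks1b, Cdc25b, Nek2, Bub3, Cdc20, Cdca8, Tubb4b, Rangap1, Kif23 and Anp32e, and their changes were small, from 0.13 to 0.27 on the log2 scale. DESeq2 with the block called 5 of these 11 (Cdc20, Rangap1, Cdc25b, Kif23 and Anp32e) and no other of the 53, against 6.65% of all tested genes higher and 7.01% lower. Of the 11, 8 were also called between days, as were 37 of the 53 genes as a whole. This overlap was not tested. Cell type markers moved with INT-777 in the same fit: 11 of 12 goblet markers were lower (median log2 −0.94 without the block), as were 9 of 14 stem cell markers (2 were higher; median −0.18), 5 of 11 enteroendocrine markers (median −0.16), 4 of 11 Paneth cell markers (median −0.21) and 4 of 10 enterocyte markers (2 were higher; median −0.16). Of 5 tuft cell markers tested 1 was higher, of 4 stromal and endothelial markers 1 was higher, and neither of the 2 immune cell markers tested was called. The part of these markers in the result was not tested. The blocked count was 7 when libraries were scaled by their totals (13.2%), against 9.08% of all tested genes higher. Without both libraries of day 1 it was 14 (26.4% higher, against 10.4% of all tested genes). Without those of day 2 it was 2 (3.77%, near the 4.79% of all tested genes), and without those of day 3 it was 8, 6 higher (11.3%, near the 12.1% of all tested genes) and 2 lower (3.77%, against 12%).

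Cdc20 had the largest change of the 53: 0.26 ± 0.15 without the block (edgeR adjusted p = 0.433) and 0.27 ± 0.05 with it (edgeR adjusted p = 0.000769). By day, its log2 difference between INT-777 and DMSO was 0.20, 0.20 and 0.41. INT-777 was higher in each pair, but its day 3 library was below the DMSO libraries of days 1 and 2, so the groups overlap. Ccnb1 changed by 0.18 ± 0.05 with the block (edgeR adjusted p = 0.0282; without it 0.625), and by 0.08, 0.08 and 0.36 on the 3 days. Cdc25b rose with the block by 0.16 ± 0.04 (edgeR adjusted p = 0.0119; without it 0.625), and its differences of 0.19, 0.11 and 0.17 were of like size on the 3 days. The same holds for Rangap1, with 0.20, 0.17 and 0.20 by day (edgeR adjusted p = 0.00276 with the block and 0.289 without).

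Cks1b, a Cdk1 subunit also needed by the ubiquitin ligase that removes the inhibitor p27, was at 52.8, 49.8 and 45.9 CPM in DMSO and 52.7, 58.1 and 58.2 CPM in INT-777. Its treatment change was 0.19 ± 0.07 (edgeR adjusted p = 0.254; 0.038 with the block), and on day 1 the libraries were level. Nek2, a centrosome-splitting kinase, was at 98.0, 96.9 and 73.8 CPM in DMSO and 106, 103 and 89.5 CPM in INT-777 (edgeR adjusted p = 0.0249 with the block, 0.577 without). INT-777 was higher on each of the 3 days. Cdca8, the borealin subunit of the passenger complex, was at 135, 137 and 111 CPM in DMSO and 147, 145 and 132 CPM in INT-777 (edgeR adjusted p = 0.0194 with the block, 0.45 without). Anp32e, a chaperone that removes the histone variant H2A.Z, was at 209, 204 and 168 CPM in DMSO and 226, 222 and 194 CPM in INT-777 (edgeR adjusted p = 0.0169 with the block, 0.512 without). Both genes were higher with INT-777 within each day and lower on day 3 within each treatment.

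Tubb4b was at 887, 878 and 754 CPM in DMSO and 924, 937 and 897 CPM in INT-777, where the lowest INT-777 library was above the highest DMSO library by a small margin (edgeR adjusted p = 0.0487 with the block, 0.434 without). Bub3 had the same order of groups (log2 0.13 ± 0.04, edgeR adjusted p = 0.0432 with the block, 0.285 without). Kif23 rose by 0.15 with the block (edgeR adjusted p = 0.0144; 0.579 without). The lowest treatment change of the 53 was that of Ect2, −0.09 ± 0.12 (edgeR adjusted p = 0.783; 0.359 with the block). Mki67 was the 1 gene lower with INT-777 on all 3 days, with log2 differences of −0.04, −0.09 and −0.10, and passed neither test (edgeR adjusted p = 0.785; 0.192 with the block).

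**Figure D2:**
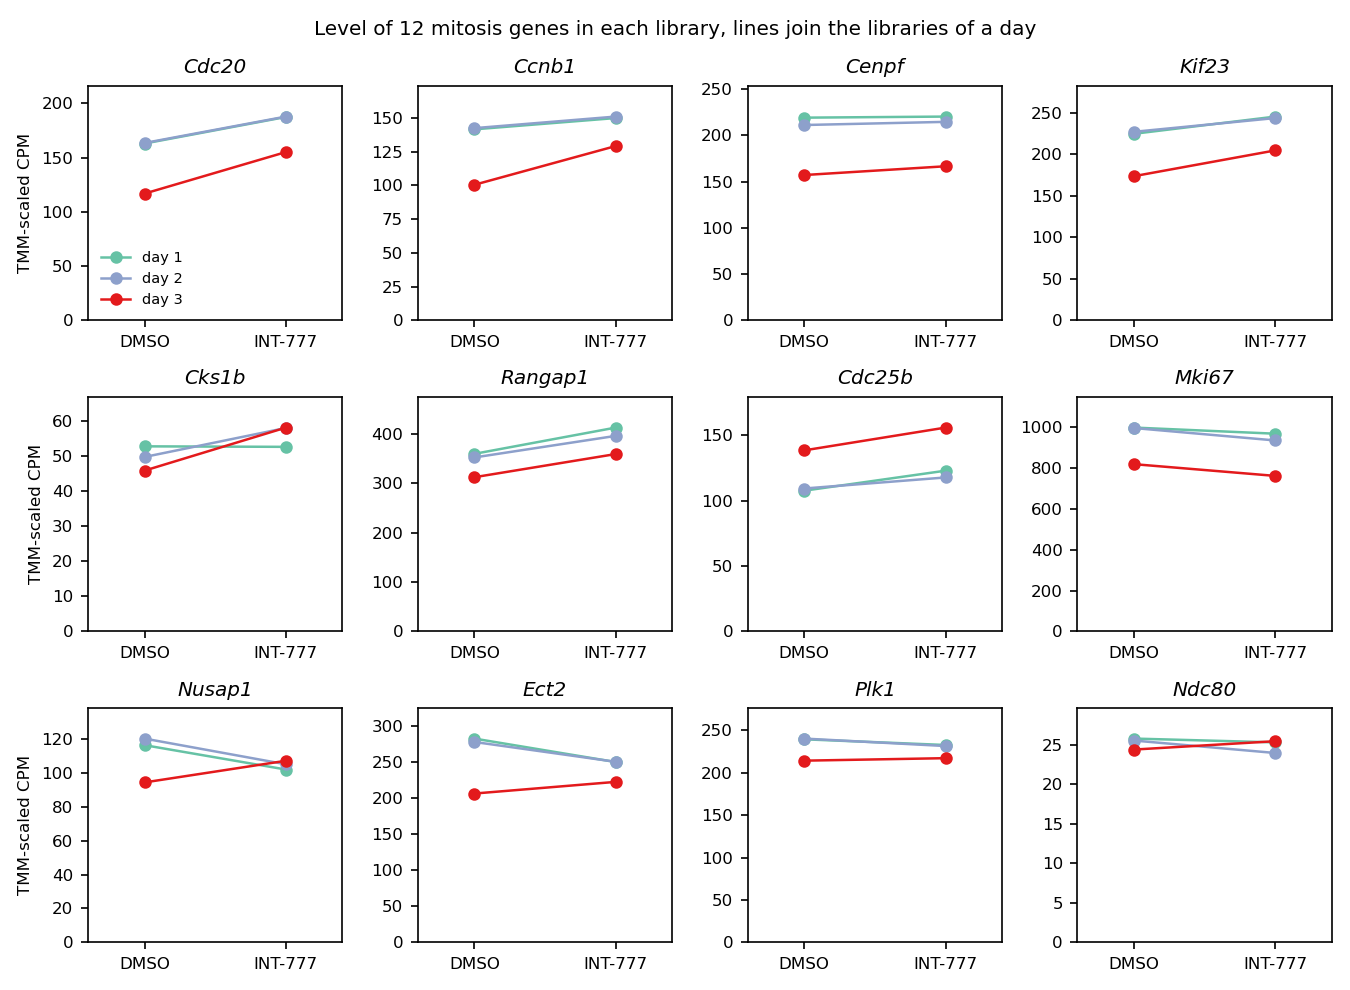
Level of 12 mitosis genes in each of the 6 libraries, in CPM scaled by TMM, on linear axes from 0; each point is 1 library, and a line joins the DMSO and INT-777 libraries of a day. In 11 of the panels the day 3 DMSO library (red, left) is the lowest DMSO library, while Cdc25b is highest on day 3; Mki67 falls from DMSO to INT-777 on each day and Cdc20 rises on each.

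Within each day, where a group has 1 library and there is no test, INT-777 was above DMSO in 35 of the 53 genes on day 1, in 37 on day 2 and in 49 on day 3, against 51.4%, 51.5% and 49.5% of all tested genes. The median log2 differences were 0.03, 0.03 and 0.18, with ranges of −0.19 to 0.20, −0.19 to 0.22 and −0.10 to 0.41. On all 3 days together 26 of the 53 genes were above, against 4281 of the 15998 tested genes (26.8%). Of the 53, 1 was below on all 3 days, against 4044 of the 15998 (25.3%). The day 3 difference was the largest of the 3 in 46 of the 53 genes, against 37.3% of all tested genes. Without both day 3 libraries, treatment alone called 7 of the 53 higher (Cdc25b, Nek2, Cdc20, Cdca8, Rangap1, Kif23 and Anp32e), or 13.2%, against 13.9% of the tested genes, and 3 lower (Cdca3, Nusap1 and Ect2), or 5.66%, against 12.9% (edgeR). All 7 were among the 11 called with the block.

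**Figure D3:**
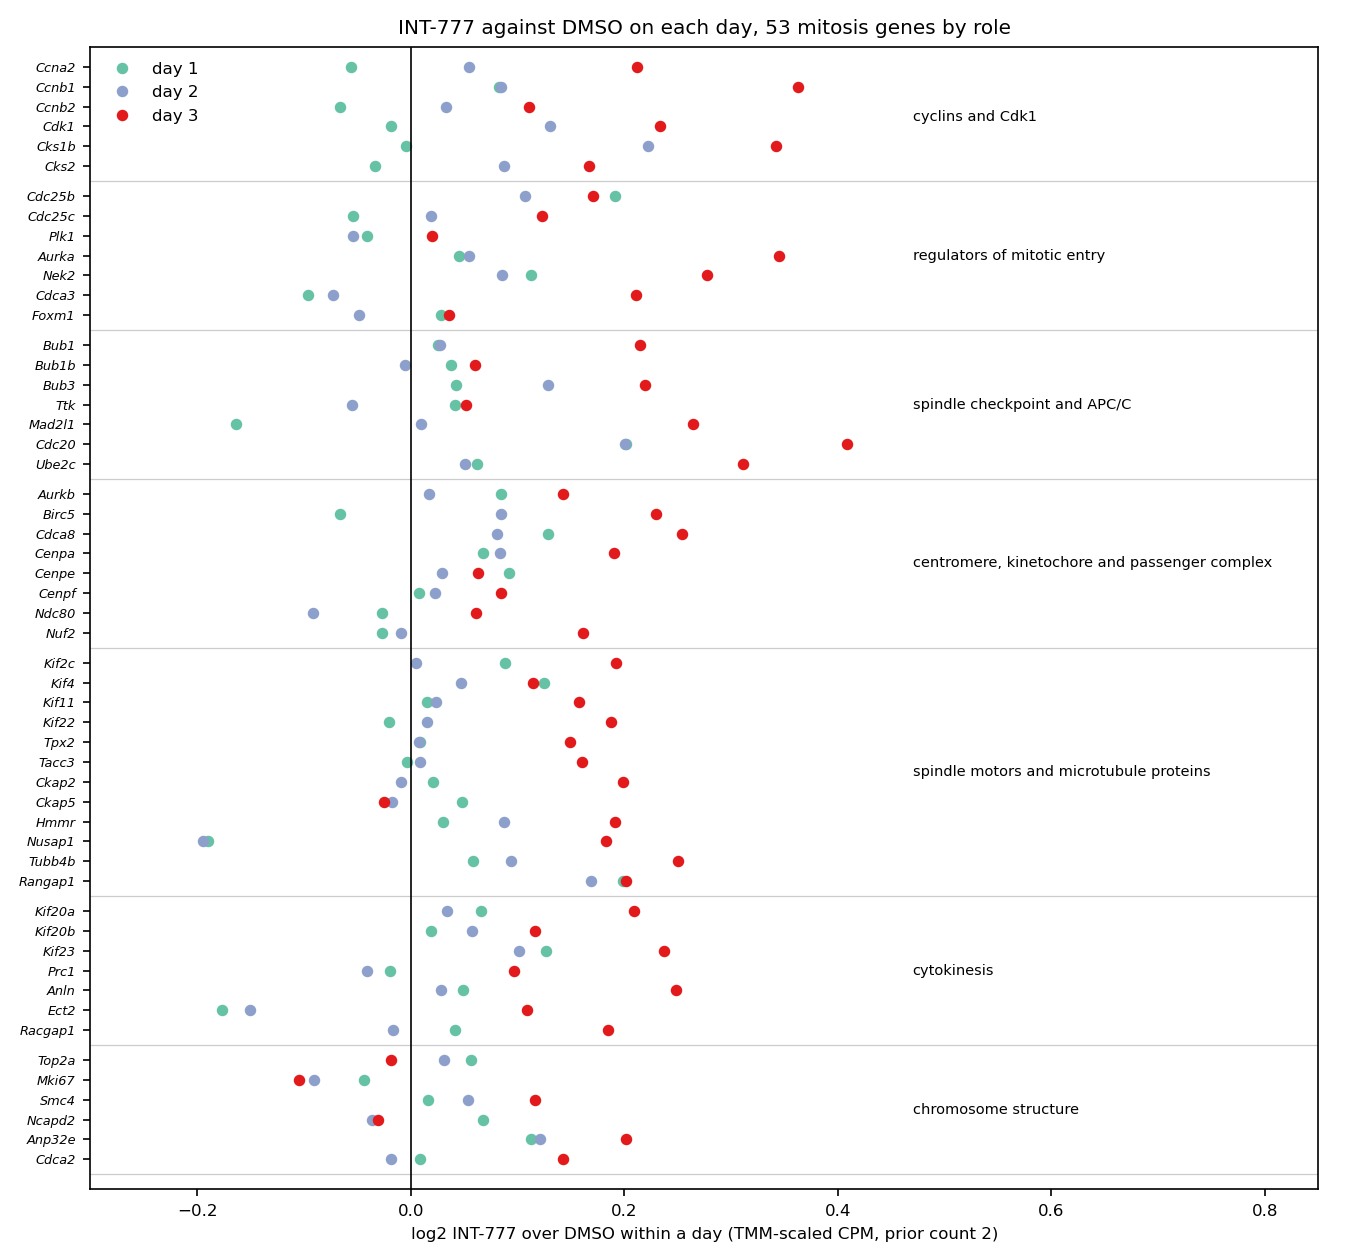
INT-777 against DMSO within each day for all 53 genes, grouped by role; the x axis is the log2 ratio of TMM-scaled CPM with a prior count of 2, and each point is 1 pair of libraries. The day 3 points lie furthest right in 46 of the genes, with a median of 0.18 against 0.03 on each of days 1 and 2.

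The same numbers read the other way give the fall on day 3 within each treatment. Against the mean of days 1 and 2, the median log2 change was −0.29 in DMSO, with 1 of 53 positive, and −0.16 in INT-777, with 7 positive. It was negative in both treatments in 46 of the 53 genes, against 34% of all tested genes. The change was lower in DMSO than in INT-777 in 49 of the 53 genes, against 49.2% of all tested genes. Cdc25b is among the 49 with a smaller rise in DMSO, and the exceptions were Ckap5, Top2a, Mki67 and Ncapd2. A test of this difference, chosen after the data were seen, called 11 of the 53 genes, or 20.8%, against 3.14% of all tested genes in that direction, and none in the other, against 2.56% (edgeR, product of treatment and day 3 in a model with day, 1 residual degree of freedom). The 11 were Nusap1, Mad2l1, Cdca3, Aurka, Ccnb1, Ect2, Ube2c, Birc5, Ccna2, Anln and Cdc20. Day 3 is 1 pool, so the difference rests on 1 DMSO and 1 INT-777 library. Those libraries also differed in cell type markers. Goblet markers summed to 29570 CPM in DMSO and 13170 CPM in INT-777, stem cell markers to 2856 and 2366 CPM and Paneth cell markers to 3556 and 2403 CPM. Tuft cell markers and stromal and endothelial markers were lower in DMSO. Goblet markers were higher in DMSO on days 1 and 2 as well. The part of the markers and of RNA integrity in this difference was not tested.

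Nusap1, a protein that links spindle microtubules to chromatin, had the largest such difference. It was at 116, 120.1 and 94.3 CPM in DMSO and 102, 105 and 107 CPM in INT-777, and its day 3 change was −0.33 in DMSO and 0.05 in INT-777 (difference 0.38 ± 0.07, edgeR adjusted p = 2.08e-05). INT-777 was thus below DMSO on days 1 and 2 and above it on day 3. Ect2 had the same order, with treatment differences of −0.18, −0.15 and 0.11 by day (edgeR adjusted p = 0.00364 for the difference), and so did Cdca3, an entry factor that promotes Wee1 removal, with −0.10, −0.07 and 0.21. Mad2l1 changed on day 3 by −0.28 in DMSO and 0.06 in INT-777 (edgeR adjusted p = 0.000287). Aurka and Ccnb1 differed from these in that INT-777 was above DMSO on every day and most so on day 3, with 0.04, 0.05 and 0.35 for Aurka (edgeR adjusted p = 0.0015) and 0.08, 0.08 and 0.36 for Ccnb1 (edgeR adjusted p = 0.00306). At the other end, Cenpf fell by nearly the same amount in both treatments, −0.45 in DMSO and −0.38 in INT-777, and Cdc25b rose by 0.35 and 0.37.

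**Figure D4:**
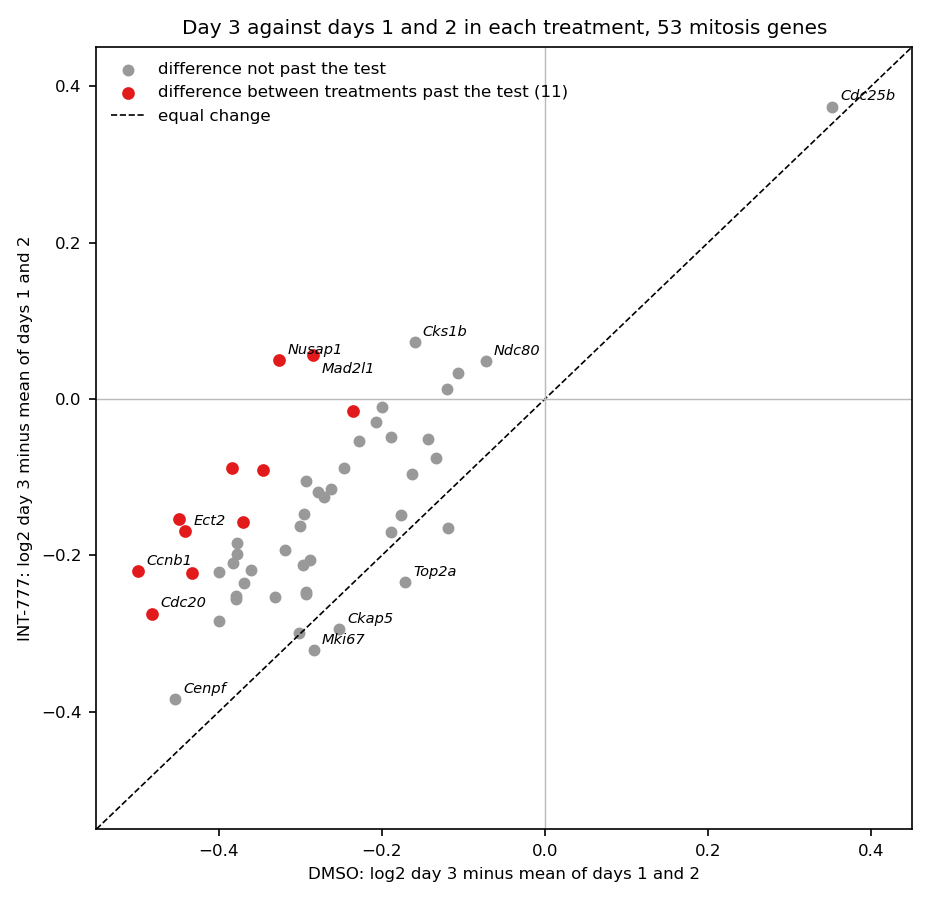
Change on day 3 against the mean of days 1 and 2 for the 53 genes, as log2 ratios in DMSO (x axis) and in INT-777 (y axis); each point is a gene, red where the difference between treatments passed the edgeR test, and the dashed line marks equal change. Of the points, 49 lie above the line, and Cdc25b is the 1 gene with a rise in DMSO.

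By role, the median fall on day 3 was −0.30 for cytokinesis, −0.25 for centromere and kinetochore, −0.23 for entry regulators, −0.22 for chromosome structure, −0.20 for checkpoint and APC/C, −0.19 for spindle and −0.19 for the cyclin group. The differences between these medians were not tested. The median treatment change ran from 0.03 (entry regulators and chromosome structure) to 0.09 (the cyclin group). Among the genes with a promoter window, the median day 3 change was −0.24 in the 34 with TTTGAA and −0.17 in the 11 without it. These 11 include Bub1 and Cdc25b, whose windows hold TTCGAA. Over the other tested genes the medians were 0.00 with TTTGAA and 0.01 without it. Split by CCAAT, the medians were −0.25 in the 35 genes with it and −0.17 in the 10 without it. Neither split was tested.

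Genes of mitosis outside the 53 were taken from a list of 132, of which 131 were tested. On day 3, 37 of the 131 (28.2%, against 8.61% of all tested genes) were lower and none was higher, with a median of −0.12. With the block 12 were higher with INT-777 (9.16%, against 11.1%) and 6 lower (4.58%, against 10.3%), shares below those of all tested genes (edgeR), and none passed without the block. From each of the lists that make up the 132, the genes of smallest treatment p were looked at. Pimreg, a mitotic regulator, was at 10.1, 10.5 and 7.98 CPM in DMSO and 6.87, 6.72 and 5.99 CPM in INT-777 (log2 −0.55 ± 0.13; edgeR adjusted p = 0.104 without the block and 0.000591 with it). Iqgap3, a scaffold of the cytokinesis list, was at 148, 146 and 116 CPM in DMSO and 122, 116 and 102 CPM in INT-777 (edgeR adjusted p = 0.269 without the block and 0.000411 with it). In both genes the INT-777 library was below its DMSO partner on every day. Pbk, a mitotic kinase, went the other way, at 102, 100.1 and 90.7 CPM in DMSO and 113, 116 and 112 CPM in INT-777 (edgeR adjusted p = 0.136 without the block and 0.00254 with it), and so did the entry phosphatase Cdc25a (log2 0.19 ± 0.07; edgeR adjusted p = 0.223 and 0.00367).

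By list, 2 of 17 other APC/C genes, 10 of 20 condensin, cohesin and separase genes, 7 of 35 other centromere and kinetochore genes, 3 of 18 other entry regulators, 10 of 30 other spindle and centrosome genes and 5 of 11 other cytokinesis genes were lower on day 3, against 8.61% of all tested genes. The APC/C share, 11.8%, was near that background. Ube2s, the APC/C enzyme that extends ubiquitin chains, had a treatment change of 0.16 ± 0.07 (edgeR adjusted p = 0.293; 0.0148 with the block), the condensin II subunit Ncapg2 of 0.12 ± 0.05 (edgeR adjusted p = 0.243; 0.045) and the kinetochore subunit Spc24 of 0.18 ± 0.09 (edgeR adjusted p = 0.388; 0.032). Each was higher with INT-777 on all 3 days and passed with the block alone.

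Among the 20 genes of the complexes that control this transcription (DREAM, MuvB, B-Myb, E2F and NF-Y), 7 (35%, against 8.61% of all tested genes) were lower on day 3. With the block 6 (30%, against 11.1%) were higher and none lower (against 10.3%) with INT-777 (edgeR). E2f2, an activating E2F, was at 78.4, 78.5 and 77.0 CPM in DMSO and 94.7, 92.6 and 85.4 CPM in INT-777, where the groups do not overlap (log2 0.22 ± 0.05; edgeR adjusted p = 0.111 without the block and 0.0023 with it). Its partner Tfdp1 changed by 0.16 ± 0.07 (edgeR adjusted p = 0.314 without the block and 0.0067 with it).

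The 51 DNA replication genes, which act one phase earlier, give the contrast. On day 3, 8 were lower (15.7%, against 8.61% of all tested genes) and 1 higher (1.96%, against 11.9%), with a median of −0.04, against −0.23 for the 53 mitosis genes. With INT-777, 1 replication gene passed without the block, Ccne1, the cyclin of S phase entry, at 42.6, 44.5 and 43.5 CPM in DMSO and 54.1, 56.3 and 63.8 CPM in INT-777 (log2 0.41 ± 0.07, edgeR adjusted p = 0.0399). Every INT-777 library was above every DMSO library. Rad51ap1, a recombination factor on the same list, was at 36.3, 36.3 and 35.9 CPM in DMSO and 41.7, 43.6 and 41.0 CPM in INT-777, also without overlap, and missed the threshold (edgeR adjusted p = 0.0972; 0.00628 with the block). With the block 20 of 51, or 39.2%, were higher, against 11.1% of all tested genes, and none lower, against 10.3%. Their median differences were 0.10, 0.09 and 0.19 on days 1, 2 and 3, against 0.03, 0.03 and 0.18 for the mitosis genes; the difference between the lists was not tested.

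**Figure D5:**
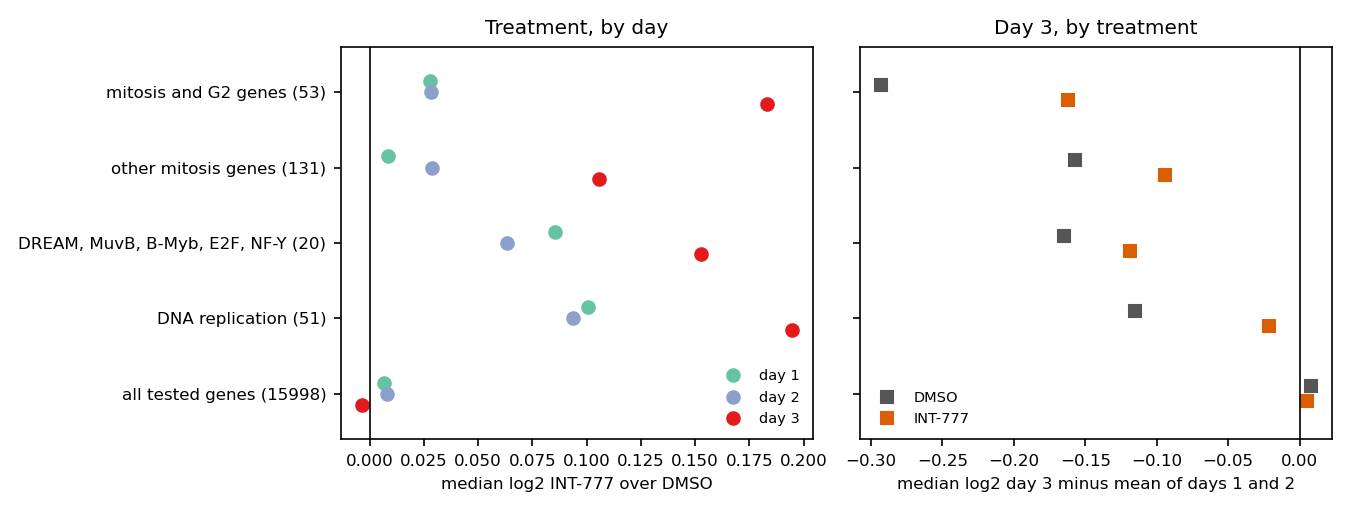
Medians of 5 gene sets, with the number of genes tested in parentheses: left, log2 INT-777 over DMSO on each day; right, log2 change of day 3 against days 1 and 2 in each treatment. The 53 mitosis genes have the lowest day 3 median of the 5 in both treatments (−0.29 and −0.16), and all 4 named sets have their largest treatment median on day 3.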

How the data were processed

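The 53 genes, the other gene lists and the marker lists were chosen with earlier results of these data known. The deposited values are counts, whole numbers of read pairs for each gene and library. FastQC, STAR 2.73a, edgeR 3.24.3 and the builds mm10 and GRCm38 are named in the submitters' processing notes; for the annotation, a version was not given in the sources used here. Reads were paired 100-base reads of a BGISEQ-500, per the labels. The strand columns held equal shares (50.1 to 50.6% in the first), so the deposited count that ignores strand was used, and overlapping genes on opposite strands cannot be separated: 20 of the 53 genes share 50 or more exonic bases with another gene. Lines that are not genes (24.4 to 25.5% of read pairs) stayed out. Of 54838 gene IDs, 54809 matched GENCODE M21, which gave symbols and positions, and 29 did not.

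The fits were made with edgeR 4.0.16 in R 4.3.3: filterByExpr by group (15998 genes), TMM scaling, and the robust quasi-likelihood test with treatment as the single term, two-sided, Benjamini-Hochberg adjusted over all tested genes, called under 0.05. For the days, both day coefficients were tested jointly (F-test) beside treatment, with the sign of day 3 minus the mean of days 1 and 2. A standard error is the size of the log2 change divided by the root of its F value. CPM values are TMM-scaled, and log2 ratios within a day use a prior count of 2. DESeq2 1.42.0, other scalings, filters, strand columns and left-out libraries were alternatives. The labels tie a replicate number to a day, and by the design text the libraries of a day share a pool, so the libraries are paired. As a check, the deviations of same-day libraries from their group means had correlations of 0.329, 0.369 and 0.632 for days 1, 2 and 3. Between days 1 and 2 they were as high (0.336 and 0.363), and between day 3 and the others −0.487 to −0.435, so the check sets day 3 apart and does not tell days 1 and 2 from each other. The fits were run on simulated counts. Those for the treatment tests held no difference between days, so they do not show how these tests behave with day 3 set apart.

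Values by library are given for genes of general knowledge, genes called by treatment with or without the block, the 4 smallest and 4 largest day p-values, and the lowest and highest treatment change; from each pathway list the 2 genes of smallest treatment p are eligible. Nusap1, Cdca3, Birc5, Anln, Ube2c and the other genes given without all their libraries were named after their values were seen or to account for every gene. One promoter sequence is not reported here.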

Additional observations from a re-analysis of the deposited data

Results flagged for a closer look

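In 11 of the 53 genes the treatment difference on day 3 differed from that of days 1 and 2 by the edgeR test of the product of treatment and day 3, which was chosen after the data were seen. All 11 differences were positive. On the log2 scale they were 0.38 for Nusap1, 0.34 for Mad2l1, 0.30 for Cdca3, 0.30 for Aurka, 0.28 for Ccnb1, 0.27 for Ect2, 0.25 for Ube2c, 0.22 for Birc5, 0.21 for Ccna2, 0.21 for Anln and 0.21 for Cdc20. For Nusap1, Cdca3 and Ect2 the treatment difference was negative on days 1 and 2 and positive on day 3. For Aurka, Ccnb1, Ube2c, Anln and Cdc20 it was positive on all 3 days and largest on day 3. The background is 3.14% of all tested genes, and each value rests on 1 DMSO and 1 INT-777 library of day 3. Goblet markers summed to 29570 CPM in the DMSO library of day 3 and 13170 CPM in the INT-777 one, and enteroendocrine markers to 2886 and 2264 CPM. Stem cell (2856 and 2366 CPM), Paneth cell (3556 and 2403 CPM), enterocyte and immune cell markers were also higher in that DMSO library. Tuft cell markers and stromal and endothelial markers were lower there. On days 1 and 2 goblet markers were higher in DMSO as well (5989 and 5886 against 3186 and 3097 CPM). The RNA integrity number was 8.7 in the DMSO library of day 3 and 9 in the INT-777 one. The part of these markers and of RNA integrity in the result was not tested.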

How the results depend on the processing

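Without the block, another scaling, filter or strand column, DESeq2, or leaving out 1 library gave 0 treatment calls among the 53 genes each time, but 10 genes were called, 7 higher and 3 lower, without both day 3 libraries. The counts without replicate 1, 2 or 3 ranged from 0 to 10. Of all tested genes, 0%, 0.0123% and 13.9% were called higher in these fits, and 0.0121 to 0.647% with 1 library left out. The counts of 0 thus came with few calls over all genes. The replicate block gave 11, and 9 with DESeq2 size factors, 7 with library totals and 5 with DESeq2 (all higher). The shares of all tested genes called higher were 11.1%, 10.0%, 9.08% and 6.65% in this order. Chosen after the data were seen, the block without both libraries of day 1, 2 or 3 gave 14, 2 and 8 calls; the share of all tested genes called higher was 10.4%, 4.79% and 12.1% in these fits, so the low count without day 2 came with fewer calls over all genes. The cause was not tested. Without the DMSO library of day 3, the treatment change of 11 of the 29 genes given by library changed sign, none of them past the threshold. The 37 day calls became 32 to 42 with other scalings, filters, strand columns or DESeq2. In these settings 58.5 to 77.4% of the 53 genes were lower on day 3, against 5.22 to 9.95% of all tested genes. Leaving out 1 library leaves a day with 1 library. The median day 3 change of the 53 genes was then −0.17 (without DMSO replicate 3) to −0.29 (without INT-777 replicate 3), against −0.004 and 0.007 over all tested genes. The 11 differences between day 3 and the other days numbered 11 with each other scaling. INT-777 was above DMSO on all 3 days in 26 genes, in 23 with DESeq2 size factors and in 20 with library totals. The lowest count of the 53 genes in any library was 1132.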
